A study of Pinus pinaster with 24 samples.

Results

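A set of 51 transcript features of maritime pine (Pinus pinaster), a conifer, was selected for having a higher level after a sulfate supply in roots, stem, needles and cotyledons alike. They were taken from the 67271 features measured, by a rule on measured values. On log2(level + 0.5), the mean of the 3 sulfate libraries had to exceed that of the 3 control libraries by at least 0.4 in every organ. In at least 3 of the 4 organs every sulfate value had to lie above every control value, and the sulfate mean had to be at least 1 in each organ. The difference between sulfate and control libraries of an organ is called the effect below. It chose the features, so it is given as a description. Counts from a test of it are printed as background and again under other settings, with nothing read from them.

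All seedlings were 4 months old and had been watered weekly with 0.3 mM KNO3, a feed without sulfur, for 3 months from 1 month after germination. Control seedlings then received 1 mM KCl and the others 0.5 mM K2SO4, and all were harvested 24 h later. Both groups therefore shared the sulfur-poor feed, and the 2 waterings differed in chloride as well as in sulfate. Poly(A) RNA of each organ was sequenced in 3 libraries per treatment, each from a pool of 13 to 14 seedlings, which gave 24 libraries.

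Plants take up sulfur mainly as sulfate through root transporters, carry it in the xylem to the shoot, and reduce it to sulfide for the making of cysteine, from which methionine and glutathione are built. Shortage of sulfur raises the transcripts of many transporters and of enzymes that free sulfur from stored compounds, and a new supply lowers them again. The features carry identifiers only, without gene names. No role can therefore be given to a feature, no gene list of the sulfur pathway could be matched, and the organ labels could not be checked against marker genes.

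Levels are given in normalized CPM, read counts relative to a library size that the authors scaled, always in the order of replicates 1, 2 and 3. Transcript lengths are not known here, so which of 2 features was the more abundant cannot be read from these levels, and sums and ratios over features are in reads or normalized CPM without regard to length. The libraries held 92664463 to 195881948 reads, and 3 reads corresponded to 0.0165 to 0.0351 normalized CPM. None of the 51 features was at 0 in any library. The lowest group mean, 23.7 reads, was that of PpCO2_8510 in control cotyledons, where libraries 1, 2 and 3 held 3, 67 and 1 reads. Features whose identifier numbers lie at most 2 apart and whose levels correlate above 0.8 are called a run. Such neighbours may be copies or parts of 1 gene, among which reads could have been divided, so their values are uncertain singly. The 51 features fell into 33 runs, of which 6 held 24 of the features. For the other 27 features no second member stood in the run. Each value also depends on the cells that make up an organ, and in whole-organ RNA fewer cells of a type and less RNA per cell cannot be told apart.

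The threshold of the rule cut through a continuous range of effects. Of 144 features with an effect of at least 0.4 in every organ, 120 also met the minimum level, and 69 of these were left out because their libraries overlapped in more than 1 organ. Just inside the effect threshold stood PpCO2_129619, with a lowest effect of 0.41, and PpCO2_179338, also with 0.41, both in roots. Just outside stood PpCO2_174858, at 0.39 in cotyledons, and PpCO2_50766, at 0.39 in stem, the latter in a run with members PpCO2_50768 and PpCO2_50769. At the minimum level the nearest member, PpCO2_26199, had a sulfate mean of 1.03 in cotyledons, and the nearest feature left out, PpCO2_179962, had 0.969 in roots. The mirrored rule, with control and sulfate exchanged, found 386 features.

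Effects of the members were moderate and differed between organs. The median over the 51 members was 0.66 (roots), 0.84 (stem), 0.83 (needles) and 0.85 (cotyledons), while the median over the 46763 features at the same minimum level was 0.01, 0.01, 0.00 and -0.00. Roots ran from 0.41 to 2.24 and stem from 0.43 to 2.72. Needles ran from 0.43 to 1.81 and cotyledons from 0.43 to 1.89. An effect of at least 1, a doubling on this scale, was found in 7 members in roots, 18 in needles and 17 each in stem and cotyledons. It was reached in every organ by 3 members, PpCO2_8510, PpCO2_57266 and PpCO2_160436, and in no organ by 22. Of these 3, only PpCO2_57266 kept it without control library 1 of every organ, and only PpCO2_8510 without sulfate library 1. Roots had the smallest effect of the 4 organs for 24 members and the largest for 8. Cotyledons had the smallest for 6 members and the largest for 18. These counts include several members of 1 run, and the effects were not tested between organs.

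**Figure D1:**
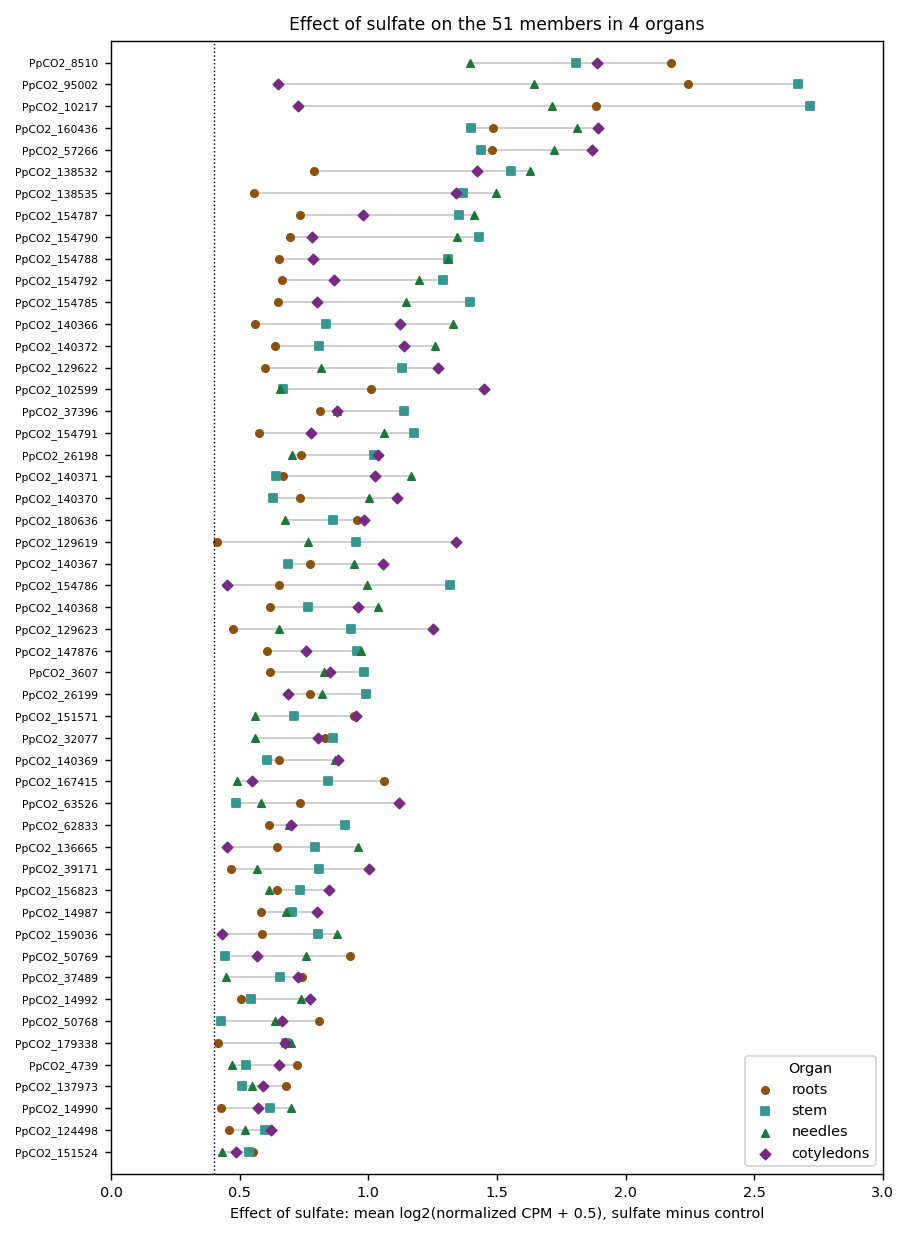
Effect of sulfate (horizontal axis, mean log2(normalized CPM + 0.5) of 3 sulfate minus 3 control libraries) for each of the 51 members (rows, ordered by mean effect), with 1 point per organ and a dotted line at the selection threshold of 0.4. Most points lie under 1, and PpCO2_95002 and PpCO2_10217 span the widest range, from under 1 in cotyledons to above 2 in stem.

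The rule allowed overlap in at most 1 organ. Of the members, 35 had no overlap between treatments in all 4 organs and 16 had overlap in 1. That organ was cotyledons for 6 members, needles for 4, roots for 3 and stem for 3. The rule used these values and no share over all features was counted, so the counts are descriptions. A limma test of sulfate against control within an organ, adjusted over all features tested there, called 19 of 51 members higher in roots, where it called 0.487% of all features higher. It called 8 of 51 in stem (0.132% of all features), 10 of the 49 tested in needles (0.0357%) and 2 of the 48 tested in cotyledons (0.0164%). The selection used the same libraries and the same difference, so nothing is read from these counts.

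Together the members took a small share of all reads. In roots that share was 0.0367 ± 0.0024% in control and 0.0643 ± 0.0026% in sulfate libraries (mean ± SD, n = 3). In stem it was 0.0391 ± 0.0028% against 0.117 ± 0.006%. Stem had the widest gap between treatments, and in each organ the sulfate libraries lay above the control libraries, a direction that the selection fixed. Needles held 0.0390 ± 0.0099% in control and 0.0962 ± 0.0154% in sulfate libraries. Cotyledons held 0.0269 ± 0.0035% and 0.0504 ± 0.0019%. In needles the features PpCO2_95002 and PpCO2_10217 alone made up 50.1% of the members' summed level in control and 58.0% in sulfate libraries. Their part was 2.26% and 6.28% in roots, 20.1% and 39.0% in stem, and 37.7% and 30.8% in cotyledons.

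**Figure D2:**
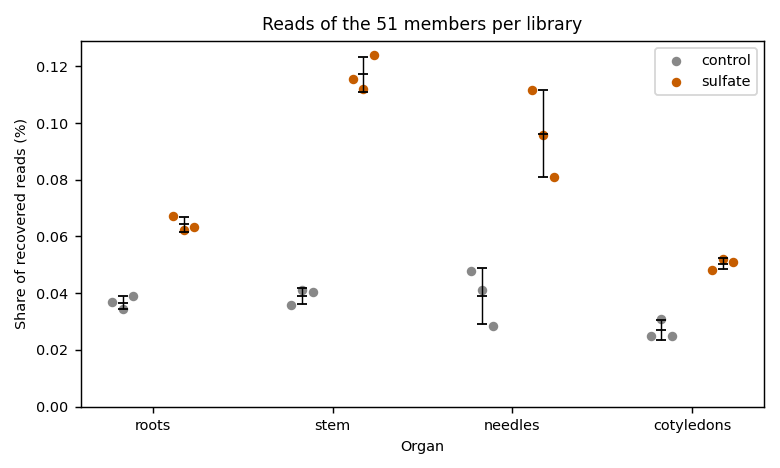
Share of all recovered reads (vertical axis, %) that the 51 members took in each library, by organ, with control in grey and sulfate in orange. Points are libraries and black bars give mean ± SD (n = 3). The highest shares, around 0.117%, are those of stem with sulfate, and needle control libraries spread widely around 0.0390%.

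PpCO2_95002 and PpCO2_10217 had the widest range of effects over organs. PpCO2_95002 measured in roots 4.66, 7.39 and 4.41 in control and 31.1, 30.2 and 21.3 in sulfate libraries (normalized CPM), and in stem 71.3, 83 and 28.7 in control and 319, 338 and 417 in sulfate libraries. In needles PpCO2_95002 measured 299, 197 and 66.6 in control and 653, 516 and 358 in sulfate libraries, and in cotyledons 107, 119 and 48.7 in control and 96, 178 and 142 in sulfate libraries. Control and sulfate libraries did not overlap in roots, stem or needles, and in cotyledons sulfate library 1 lay below control libraries 1 and 2. Control library 3 was the lowest control library in every organ. The effects were 2.24 (roots), 2.67 (stem), 1.64 (needles) and 0.65 (cotyledons). Without control library 3 of every organ the needle effect would be 1.02 and the cotyledon effect 0.24.

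PpCO2_10217 measured in roots 1.03, 1.72 and 1.11 in control and 6.54, 6.66 and 4.92 in sulfate libraries (normalized CPM), and in stem 13.1, 15 and 4.6 in control and 58.6, 65.2 and 77.9 in sulfate libraries. In needles PpCO2_10217 measured 58.7, 38.3 and 14.2 in control and 136, 115 and 75.4 in sulfate libraries, and in cotyledons 19.4, 23.3 and 8.52 in control and 16.5, 40.7 and 27.1 in sulfate libraries. Its libraries stood in nearly the same order as those of PpCO2_95002, with overlap again in cotyledons. Effects of PpCO2_10217 were 1.88 (roots), 2.72 (stem), 1.72 (needles) and 0.73 (cotyledons). The cotyledon effect would be 0.30 without control library 3 of every organ and 0.42 without sulfate library 2. Sulfate levels were highest in needles for both features, followed by stem, while cotyledons and roots came after.

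PpCO2_160436 and PpCO2_57266 showed high effects in every organ together with a wide spread between libraries of a group. PpCO2_160436 measured in roots 3.47, 7.86 and 15.4 in control and 42.8, 15.9 and 15.9 in sulfate libraries (normalized CPM), and in stem 5.43, 14.8 and 16.7 in control and 56.5, 23.4 and 20.4 in sulfate libraries. In needles PpCO2_160436 measured 3.95, 9.74 and 11.9 in control and 55.2, 31.6 and 13.2 in sulfate libraries, and in cotyledons 3.56, 15.9 and 15.9 in control and 62.1, 23.6 and 36.5 in sulfate libraries. Control library 1 was the lowest and sulfate library 1 the highest in each organ. In roots the gap between treatments was narrow, since control library 3 nearly reached sulfate libraries 2 and 3. The effects were 1.49 (roots), 1.40 (stem), 1.81 (needles) and 1.89 (cotyledons). Leaving out control library 1 of every organ gave effects of 0.97, 0.91, 1.36 and 1.22 in the same order of organs, and leaving out sulfate library 1 gave 1.02, 0.95, 1.34 and 1.54.

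PpCO2_57266 measured in roots 1.05, 2.11 and 4.75 in control and 15.9, 4.78 and 4.81 in sulfate libraries (normalized CPM), and in stem 1.53, 4.3 and 4.7 in control and 17.4, 7.05 and 6.99 in sulfate libraries. In needles PpCO2_57266 measured 1.23, 3.53 and 3.71 in control and 17.9, 9.72 and 5.06 in sulfate libraries, and in cotyledons 1.26, 5.46 and 4.38 in control and 20.6, 7.98 and 13.4 in sulfate libraries. The pattern by library was that of PpCO2_160436, with the lowest value in control library 1 and the highest in sulfate library 1 of each organ. Its effects were 1.48 (roots), 1.44 (stem), 1.72 (needles) and 1.87 (cotyledons), and without sulfate library 1 of every organ the root effect would be 0.93.

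PpCO2_8510 had control values down to 0.00824 normalized CPM. PpCO2_8510 measured in roots 0.113, 1.24 and 0.651 in control and 4.22, 4.19 and 4.6 in sulfate libraries (normalized CPM), and in stem 0.0829, 0.88 and 0.857 in control and 3.16, 3.87 and 2.43 in sulfate libraries. In needles PpCO2_8510 measured 0.00824, 1.17 and 0.883 in control and 1.72, 2.12 and 3.17 in sulfate libraries, and in cotyledons 0.0165, 0.7 and 0.0111 in control and 1.94, 2.99 and 1.38 in sulfate libraries. Control library 1 stood far under control library 2 in all organs, and in cotyledons control libraries 1 and 3 held 3 reads and 1 read. In needles control library 1 held 1 read. No sulfate library overlapped a control library. Effects were 2.17 (roots), 1.81 (stem), 1.39 (needles) and 1.89 (cotyledons), and because the added 0.5 weighs on such low levels they depend on it: with 2 in its place the cotyledon effect was 0.87, and with 0.1 it was 3.27. Without control library 1 of every organ the needle effect would be 0.87.

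PpCO2_138532 had a strong effect in the shoot organs and a weaker one in roots. PpCO2_138532 measured in roots 0.66, 2.39 and 2.54 in control and 3.28, 3.78 and 2.74 in sulfate libraries (normalized CPM), and in stem 5.22, 15.9 and 18.2 in control and 37.6, 35.9 and 31.6 in sulfate libraries. In needles PpCO2_138532 measured 7.53, 13.9 and 17 in control and 50.8, 41.5 and 27.4 in sulfate libraries, and in cotyledons 7.69, 19.7 and 25.1 in control and 44.3, 41.5 and 42.8 in sulfate libraries. Every sulfate library lay above every control library, in roots by a narrow margin. Control library 1 was the lowest in each organ. The effects were 0.79 (roots), 1.55 (stem), 1.63 (needles) and 1.42 (cotyledons), and without control library 1 of every organ the root effect would be 0.34, under the threshold of the rule, the stem effect 1.02 and the cotyledon effect 0.93. A feature 3 numbers away, PpCO2_138535, had effects of 0.55 (roots), 1.37 (stem), 1.5 (needles) and 1.34 (cotyledons), and its treatments overlapped in roots. Its root effect would be 0.17 and its cotyledon effect 0.88 without control library 1 of every organ.

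**Figure D3:**
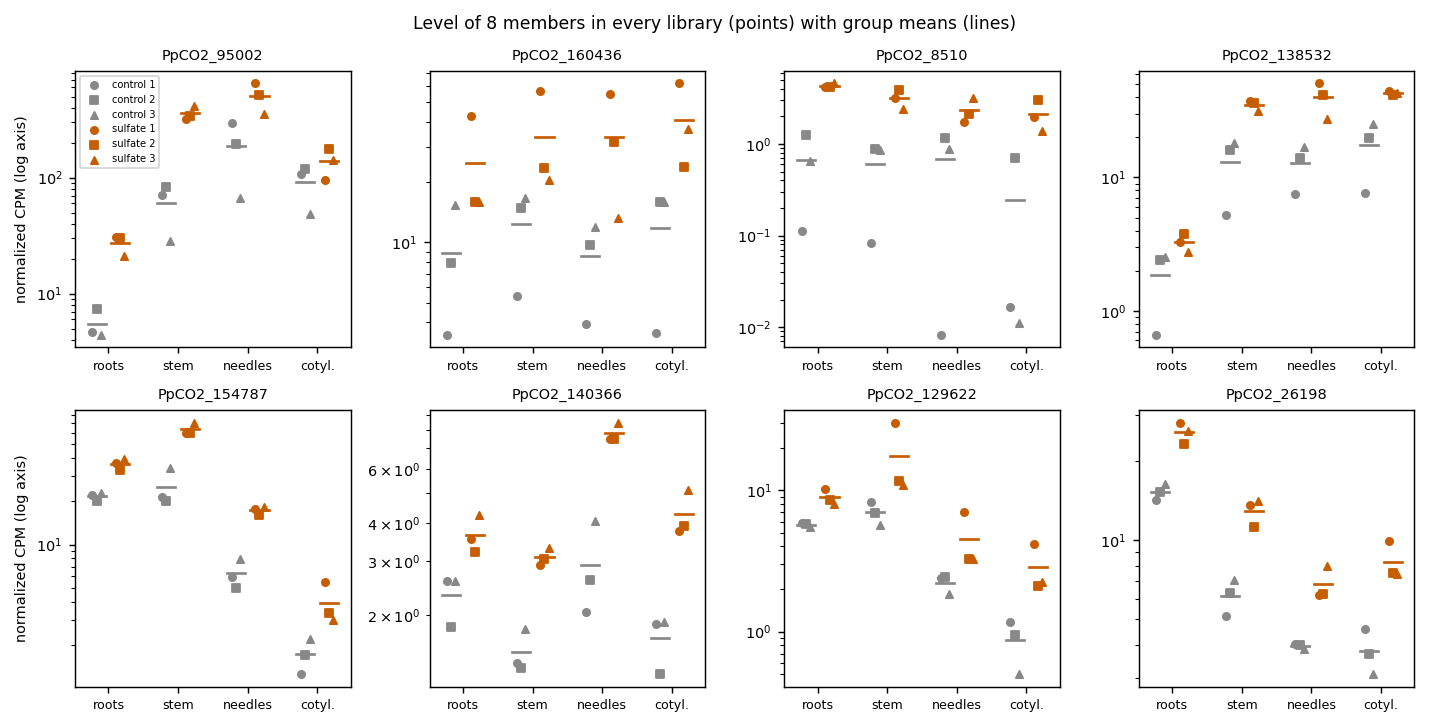
Level of 8 members in each of the 24 libraries (vertical log axis, normalized CPM) by organ. Grey symbols are control and orange symbols sulfate libraries, the symbol shape gives the replicate number and the line the group mean. PpCO2_95002 overlaps between treatments in cotyledons, and control library 1 is lowest in every organ for PpCO2_160436 and PpCO2_138532.

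The 2 largest runs of members each held 7 of them. In the run from PpCO2_154785 to PpCO2_154792 (7 of a run of 9 features) effects were 0.57 to 0.73 (roots), 1.18 to 1.43 (stem), 0.99 to 1.41 (needles) and 0.45 to 0.98 (cotyledons). PpCO2_154787 measured in roots 22.3, 20.2 and 22.9 in control and 36.9, 33.3 and 39.6 in sulfate libraries (normalized CPM), and in stem 21.5, 20.1 and 33.9 in control and 60.0, 59.6 and 70.8 in sulfate libraries. In needles PpCO2_154787 measured 5.91, 5.01 and 7.98 in control and 17.6, 16.2 and 18.2 in sulfate libraries, and in cotyledons 1.25, 1.7 and 2.2 in control and 5.44, 3.34 and 3 in sulfate libraries. No sulfate library of PpCO2_154787 overlapped a control library, and control library 3 was the highest control library in every organ.

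PpCO2_154786 measured in roots 41.1, 28.4 and 31.2 in control and 48.7, 51.8 and 57.2 in sulfate libraries (normalized CPM), and in stem 13.8, 14.4 and 21.4 in control and 35.5, 41.6 and 47 in sulfate libraries. In needles PpCO2_154786 measured 6.14, 5.56 and 7.33 in control and 12.2, 12.4 and 14.6 in sulfate libraries, and in cotyledons 0.779, 1.16 and 1.69 in control and 2.03, 1.68 and 1.65 in sulfate libraries. In this neighbour the treatments overlapped in cotyledons, where control library 3 lay just above sulfate libraries 2 and 3. The effects of PpCO2_154786 were 0.65 (roots), 1.32 (stem), 0.99 (needles) and 0.45 (cotyledons). In cotyledons the effect would be 0.26 without control library 1 of every organ.

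In the run from PpCO2_140366 to PpCO2_140372, all 7 features were members. Their effects were 0.56 to 0.77 (roots), 0.61 to 0.84 (stem), 0.87 to 1.33 (needles) and 0.88 to 1.14 (cotyledons). PpCO2_140366 measured in roots 2.59, 1.83 and 2.59 in control and 3.55, 3.21 and 4.23 in sulfate libraries (normalized CPM), and in stem 1.4, 1.35 and 1.81 in control and 2.92, 3.04 and 3.32 in sulfate libraries. In needles PpCO2_140366 measured 2.04, 2.61 and 4.07 in control and 7.5, 7.47 and 8.49 in sulfate libraries, and in cotyledons 1.88, 1.28 and 1.9 in control and 3.77, 3.9 and 5.11 in sulfate libraries. Sulfate and control libraries did not overlap, and needles with sulfate held the highest levels. With an added value of 2 in place of 0.5 the stem effect of PpCO2_140366 was 0.53 and the cotyledon effect 0.76.

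The run from PpCO2_129619 to PpCO2_129623 held 3 members among 5 features. Effects were 0.41 to 0.60 (roots), 0.93 to 1.13 (stem), 0.65 to 0.82 (needles) and 1.25 to 1.34 (cotyledons). PpCO2_129622 measured in roots 5.81, 5.73 and 5.51 in control and 10.2, 8.56 and 7.96 in sulfate libraries (normalized CPM), and in stem 8.31, 6.86 and 5.7 in control and 30.1, 11.6 and 10.9 in sulfate libraries. In needles PpCO2_129622 measured 2.39, 2.42 and 1.83 in control and 7.05, 3.28 and 3.25 in sulfate libraries, and in cotyledons 1.17, 0.94 and 0.501 in control and 4.19, 2.12 and 2.25 in sulfate libraries. Sulfate library 1 was the highest in every organ, and in stem it stood well above the other 2 sulfate libraries. Treatments did not overlap for PpCO2_129622, whose effects were 0.60 (roots), 1.13 (stem), 0.82 (needles) and 1.27 (cotyledons). Without sulfate library 1 of every organ the stem effect would be 0.67 and the needle effect 0.48.

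PpCO2_26198 and its neighbour PpCO2_26199 were 2 members of a run of 3. PpCO2_26198 measured in roots 14.3, 15.3 and 16.4 in control and 28.1, 23.4 and 26.1 in sulfate libraries (normalized CPM), and in stem 5.15, 6.29 and 7.05 in control and 13.6, 11.3 and 14.1 in sulfate libraries. In needles PpCO2_26198 measured 4.04, 3.99 and 3.87 in control and 6.18, 6.25 and 8 in sulfate libraries, and in cotyledons 4.6, 3.68 and 3.09 in control and 9.94, 7.5 and 7.46 in sulfate libraries. The treatments were separate in each organ, and control libraries of roots and needles lay close together. Its effects were 0.74 (roots), 1.02 (stem), 0.70 (needles) and 1.04 (cotyledons).

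A run from PpCO2_14987 to PpCO2_14992 held 3 members of 7 features, with effects between 0.43 and 0.80 over the 4 organs, and PpCO2_50768 and PpCO2_50769 stood in a run of 5. Over all 33 runs, 31 further features were not members. Effects of the 31 features spanned -0.55 to 1.31, and 22 of the 31 had a positive effect in every organ. No share over all features was counted for this, and a run is defined by its correlation.

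PpCO2_151524 and PpCO2_124498 had the narrowest range of effects over the 4 organs. PpCO2_151524 measured in roots 3.75, 3.31 and 4.84 in control and 7.14, 4.89 and 6.1 in sulfate libraries (normalized CPM), and in stem 7.37, 5.23 and 8.26 in control and 12, 8.82 and 9.76 in sulfate libraries. In needles PpCO2_151524 measured 6.66, 4.97 and 5.35 in control and 9.92, 7.59 and 6.15 in sulfate libraries, and in cotyledons 9.05, 8.31 and 8.83 in control and 13.8, 12.5 and 11.1 in sulfate libraries. Only in needles did the treatments overlap, where sulfate library 3 lay below control library 1. The effects were 0.55 (roots), 0.53 (stem), 0.43 (needles) and 0.49 (cotyledons), and without sulfate library 1 of every organ the needle effect would be 0.26.

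PpCO2_124498 measured in roots 0.921, 1.27 and 0.964 in control and 1.27, 1.74 and 1.91 in sulfate libraries (normalized CPM), and in stem 0.985, 1.2 and 1.02 in control and 2.6, 1.93 and 1.27 in sulfate libraries. In needles PpCO2_124498 measured 0.618, 1.38 and 1.45 in control and 1.53, 1.65 and 2.26 in sulfate libraries, and in cotyledons 0.483, 0.533 and 0.712 in control and 0.945, 0.825 and 1.85 in sulfate libraries. Levels were low throughout and the treatments were separate, in roots by little. Control library 1 was the lowest control library in each organ. Effects of PpCO2_124498 were 0.46 (roots), 0.60 (stem), 0.52 (needles) and 0.62 (cotyledons). The needle effect would be 0.26 without control library 1 of every organ, and the cotyledon effect 0.37 without sulfate library 3.

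PpCO2_147876 was the member with the largest difference in favour of cotyledons in control seedlings. PpCO2_147876 measured in roots 3.04, 3.44 and 3.16 in control and 5.52, 5.19 and 4.74 in sulfate libraries (normalized CPM), and in stem 5.11, 4.26 and 5.74 in control and 9.47, 11.6 and 9.55 in sulfate libraries. In needles PpCO2_147876 measured 3.56, 2.53 and 1.82 in control and 6.98, 6.14 and 3.84 in sulfate libraries, and in cotyledons 12, 9.58 and 19.1 in control and 19.4, 22.1 and 26.3 in sulfate libraries. Treatments did not overlap, although in cotyledons control library 3 nearly reached sulfate library 1. Its effects were 0.60 (roots), 0.95 (stem), 0.97 (needles) and 0.76 (cotyledons).

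Levels of the members in control seedlings were also compared between organs, a contrast that the rule did not use. The rule did use these libraries and a minimum level in every organ, so the background is given with that minimum too. Limma's F test over the 12 control libraries called a difference between organs in 41 of the 49 members tested, and in 88.8% of the 67061 features tested, or 85.1% of those at the same minimum sulfate level. The share of the members is near that background. PpCO2_8510 and PpCO2_26199 did not pass the filter on low levels. Among sulfate libraries 45 of 51 members differed between organs, against 87.0% of all features and 82.4% at the minimum level. The 8 members not called in control libraries were PpCO2_32077, PpCO2_37396, PpCO2_57266, PpCO2_62833, PpCO2_102599, PpCO2_140368, PpCO2_160436 and PpCO2_180636, named because they are few. With the replicate number as a block, 4 of these were called, PpCO2_32077, PpCO2_37396, PpCO2_140368 and PpCO2_160436 (limma, Benjamini-Hochberg adjusted p = 0.0398, 0.000728, 0.0147 and 0.0445).

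Each organ was then set against the mean of the other 3 in control libraries. In roots 20 members were higher and 12 lower, where 35.6% of all features were higher and 35.0% lower. In stem 16 were higher and 8 lower (31.8% and 31.1% of all features). Needles had 13 members higher and 14 lower (26.3% and 32.1%), and cotyledons 12 higher and 20 lower (37.2% and 37.1%). No organ held the higher level for most members. Counts of members include several of 1 run, and with 1 member per run 11 of 32 were higher in roots and 11 of 32 lower in cotyledons. With the replicate number as a block the counts of higher and lower members were 19 and 10 for stem, 16 and 16 for needles and 15 and 24 for cotyledons, with those for roots unchanged. Scaling by plain CPM moved the median organ difference of all features to 0.28 in roots and -0.23 in needles, from 0.02 and -0.06 as deposited, and left 5 members lower in stem.

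Between single organs the members were called less evenly. Roots and stem differed in 15 of the 49 members (53.8% of all features), and roots and needles in 28 (66.9%). Roots and cotyledons differed in 35 (76.4%), and stem and needles in 32 (61.0%). Stem and cotyledons differed in 26 (68.5%), and needles and cotyledons in 28 (51.3%). Whether the low count between roots and stem is particular to the members was not tested. The ratio of the highest to the lowest organ mean in control libraries had a median of 3.74 over members and of 1.81 over the features at the minimum level. It was under 2 in 16 members and at least 4 in 21. Members of 1 run are counted separately here, and those from PpCO2_154785 to PpCO2_154792 had ratios of 14.6 to 27.7.

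**Figure D4:**
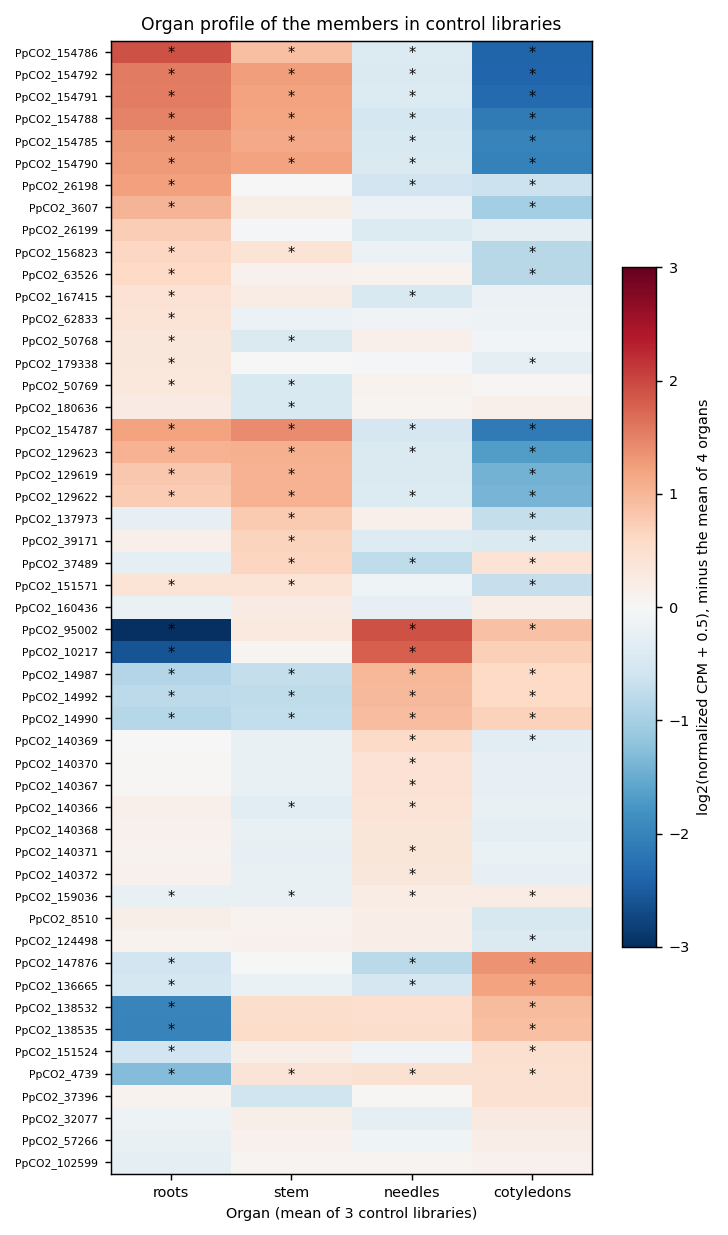
Organ profile of the 51 members (rows) in control libraries, as the mean log2(normalized CPM + 0.5) of 3 libraries in each organ (columns) minus the mean of the 4 organs, red for higher and blue for lower. A star marks an organ called different from the mean of the other 3 (limma, adjusted p under 0.05). The run around PpCO2_154787 is high in roots and stem, and PpCO2_95002 is low in roots and high in needles.

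The organ profiles of single members ran in different directions. PpCO2_154786 was higher in roots than in the other organs of control seedlings by 2.55 ± 0.18 (log2 difference ± SE, limma, Benjamini-Hochberg adjusted p = 1.04e-07) and lower in cotyledons, at -3.23 ± 0.18 (adjusted p = 1.36e-08). Its neighbour PpCO2_154787 was higher in stem by 1.86 ± 0.18 (adjusted p = 2.48e-06) and in roots by 1.64 ± 0.18 (adjusted p = 5.42e-06). In both features all 3 cotyledon control libraries lay under every library of the other control organs. PpCO2_26198 was higher in roots by 1.66 ± 0.11 (adjusted p = 3.99e-08).

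PpCO2_95002 showed the reverse profile, lower in roots, at -3.97 ± 0.46 (limma, Benjamini-Hochberg adjusted p = 1.23e-05) and higher in needles by 2.38 ± 0.46 (adjusted p = 0.001). PpCO2_10217 differed likewise, by -3.32 ± 0.45 in roots (adjusted p = 4.88e-05) and 2.28 ± 0.45 in needles (adjusted p = 0.00121). Both features had all 3 root control libraries below every control library of the other organs. PpCO2_138532 was lower in roots, at -2.64 ± 0.46 (adjusted p = 0.00035). It was higher in cotyledons by 1.22 ± 0.46 (limma, adjusted p = 0.0327). Stem and needles were 0.66 and 0.75 higher for it than the other organs, called only with the replicate number as a block (adjusted p = 0.000124 and 5.41e-05, against 0.237 and 0.186 without). PpCO2_147876 was higher in cotyledons by 1.77 ± 0.20 (limma, Benjamini-Hochberg adjusted p = 5.90e-06) and lower in needles, at -1.09 ± 0.20 (adjusted p = 0.000522).

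In other members the differences between control organs were smaller. PpCO2_160436 had differences from -0.30 ± 0.55 in roots to 0.39 ± 0.55 in stem, with adjusted p of 0.642 and 0.558 (limma, Benjamini-Hochberg). With the replicate number as a block its stem difference had an adjusted p of 0.0342. PpCO2_57266 had -0.33 ± 0.48 in roots and 0.23 ± 0.48 in stem (adjusted p = 0.555 and 0.704). The standard errors were large, so these values do not show that the organs were alike. PpCO2_151524 was lower in roots, at -0.75 ± 0.14 (adjusted p = 0.000351) and higher in cotyledons by 0.66 ± 0.14 (adjusted p = 0.000873). PpCO2_124498 was lower in cotyledons, at -0.55 ± 0.16 (adjusted p = 0.00837).

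Most organ differences recurred after sulfate. Of 115 differences called between an organ and the mean of the others in control libraries, 95 were called in the same direction in sulfate libraries. Over all features 87.0% of such calls recurred. The organ with the highest mean was the same in control and sulfate libraries for 42 of 51 members. It was roots for 17 members in control and 14 in sulfate libraries, stem for 9 and 13, needles for 15 and 13, and cotyledons for 10 and 11. PpCO2_95002 was higher in stem than in the other organs by 1.54 ± 0.21 among sulfate libraries (limma, Benjamini-Hochberg adjusted p = 3.93e-05), where its difference in control libraries was 0.38 ± 0.46 (adjusted p = 0.497). These 2 values were not tested against each other, because that difference is part of what the rule used.

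Levels of members in different runs were weakly correlated over the 24 libraries. For the 50 pairs of members in the same run the median Pearson correlation over the 24 libraries was 0.98, and 0.72 after the group means were removed. For the 1225 pairs in different runs it was 0.31, and 0.01 after removal. Over the control libraries alone the median was 0.97 for pairs in the same run and 0.00027 for pairs in different runs. Every member was selected to rise with sulfate in every organ, which adds to the correlation over the 24 libraries. The libraries of a pair share depth and scaling, and a run is defined by its correlation, so these values are descriptions.

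A further 3 pairs of members, not in 1 run, had parallel levels. PpCO2_138532 and PpCO2_138535 correlated at 0.996 over 24 libraries and at 0.983 within groups. PpCO2_10217 and PpCO2_95002 correlated at 0.995 and 0.988. PpCO2_57266 and PpCO2_160436 correlated at 0.993 and 0.988. The ratio of the second to the first feature ran from 1.06 to 1.88 over the libraries for the first pair, from 3.98 to 6.23 for the second and from 2.62 to 3.73 for the third. In each pair the ratio varied far less than the levels themselves. Outside the members, the features most like them were PpCO2_125889 for PpCO2_138532 (Pearson r = 0.937 over 24 libraries), PpCO2_115700 for PpCO2_95002 (0.917) and PpCO2_14950 for PpCO2_160436 (0.827). Whether reads were divided between near-identical copies was not tested, as no sequences were used.

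**Figure D5:**
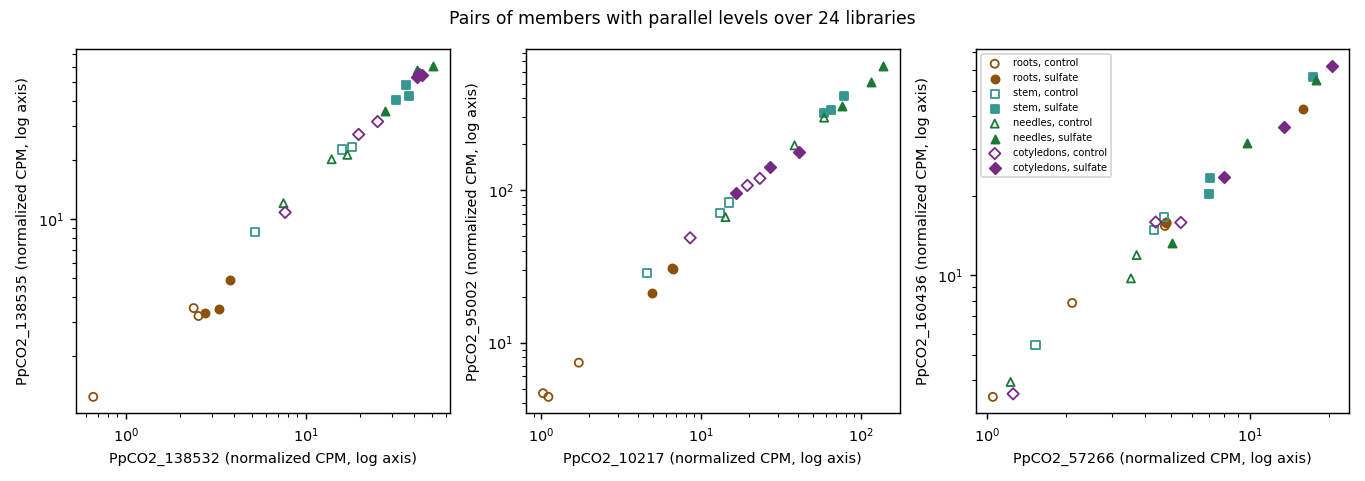
Levels of 3 pairs of members against each other in the 24 libraries (both axes log, normalized CPM), with open symbols for control, filled symbols for sulfate and a colour and shape per organ. In each panel the points follow 1 line across organs and treatments, with a ratio of 3.98 to 6.23 for PpCO2_95002 over PpCO2_10217.

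Libraries with the same replicate number tended to be extreme together. In 12 members, of 11 runs, 1 replicate number was the lowest control library in all 4 organs, which held for 9.29% of the features at the minimum level. In 16 members, of 11 runs, 1 number was the highest sulfate library in all 4 organs, against 7.57% of those features. Control library 1 was lowest throughout for 5 members and sulfate library 1 highest throughout for 7. In 9 members, of 7 runs, 1 number was the highest control library in all 4 organs. In 9 members, of 7 runs, 1 number was the lowest sulfate library in all 4. No share over all features was counted for these. The rule used these values, and a number low in control or high in sulfate libraries raises all 4 effects together. The counts are therefore descriptions. The labels do not say whether organs of 1 number came from the same seedlings. The 4 organs are therefore not known to be separate observations of a feature.

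Levels were averaged over the 33 runs on the log2 scale, each run by its member with the largest mean effect. In this average control library 1 was the lowest control library and sulfate library 3 the lowest sulfate library in every organ. In control library 1, however, 14 (roots), 17 (stem), 17 (needles) and 16 (cotyledons) of the 33 runs lay above their group mean. In sulfate library 3 these counts were 11, 11, 12 and 11. The deviations of the average from the group mean ran from -0.16 in needle sulfate library 3 to 0.12 in needle sulfate library 1. Across the 24 libraries these deviations correlated at 0.156 with those of the 386 features of the mirrored rule, a description over libraries that share depth and scaling.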

How the data were processed

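RNA of 24 libraries was compared, with groups and replicate numbers taken from the labels. The authors deposited 1 table of a signal per feature and library, presented as CPM. Its columns do not sum as plain CPM would, so the values were read as CPM relative to a library size that the authors had scaled and are called normalized CPM. Plain CPM had been assumed in the plan, and the same test applies. Reads were processed with bcl2fastq and BWA, per the submitters' processing notes. On the reference, counting tool, scaling method and strand setting nothing is given in the sources used here, so a feature and its antisense partner cannot be told apart. In the deposited signal 100% of values were whole multiples of a library's smallest step, within 0.01 of a step, which gave the reads behind each value. Floors in reads cover counting error only.

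The 51 members, the runs and the rules for naming were chosen with earlier results of these data known. Named with all library values were up to 8 members with no overlap in 4 organs and the largest mean effect (1 per run), the 2 with the widest and the 2 with the narrowest range of effect, and the member with the largest rise of each organ over the other 3 in control libraries.

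Organ contrasts were fitted to the 12 libraries of a treatment with limma 3.58.1 (lmFit, then eBayes with its trend and robust settings, R 4.3.3) on log2(value + 0.5), over features that reached 1 in 3 or more libraries, with Benjamini-Hochberg adjustment over all features tested and a threshold of 0.05. Fold changes on that scale understate those of low features. Sulfate was set against control within each organ in the same way, for background only. Replicates are pools of seedlings, per the labels, and p-values rest on the spread among 3 pools. In control libraries of different organs, all 18 pairs with the same replicate number had deviations that correlated above 0.1 (0.131 to 0.415). The numbers were therefore taken as pairing these libraries. For different numbers the median was -0.162. Deviations within a group cancel out, so positive values for the same number lower those for different numbers, and that median is no separate comparison. This pairing comes from the data, and the labels do not state it. The organ tests reported above leave it out, except where the replicate number is named as a block.

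Alternatives were other added values (0.1 and 2), plain CPM and median-ratio scaling, filters, the replicate block, a fit over all 24 libraries, leaving out libraries, and edgeR 4.0.16 on the recovered reads, whose quasi-likelihood test served only as an alternative since the deposited values are not counts. The fits were tested on simulated data. Python 3.11.15, pandas 2.3.3 and matplotlib 3.10.9 were used for descriptions and figures.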

Additional observations from a re-analysis of the deposited data

How the results depend on the processing

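The rule gave 51 members. An added value of 2 gave 20, a sulfate mean of 2 gave 29, overlap allowed gave 120, and 1 member per run gave 33. Leaving out 1 library gave 49 to 61. Leaving out 1 replicate number of a treatment in all organs, an alternative chosen after seeing the data, gave 73 (control 2), 86 (control 3) and 126 (control 1), and 79 (sulfate 1), 81 (sulfate 2) and 125 (sulfate 3), with 43 to 47 of the 51 kept; fewer libraries then have to be separate. Over the settings that left out libraries the range was 49 to 126.

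With 1 member per run, 25 of the 32 members tested differed between organs in control and 27 of 33 in sulfate libraries. Of the 32, 11 were higher in roots, and 8 were higher and 5 lower in stem. In needles 6 were higher and 6 lower, and in cotyledons 11 were lower. Roots and needles differed in 17, stem and needles in 16, stem and cotyledons in 15, and needles and cotyledons in 13. With a minimum of 5 fewer members were tested, and 23 of 24 differed in control and 29 of 31 in sulfate libraries. Of the 24, 12 were higher in roots, and 10 were higher and 5 lower in stem. In needles 6 were higher, and in cotyledons 11 were lower. Roots and stem differed in 8, roots and cotyledons in 23, stem and needles in 19, and needles and cotyledons in 15. Plain CPM left 5 members lower in stem, and edgeR 9 lower in needles. Leaving out a library moved none of the organ counts by over 1.5 times.

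With the replicate number as a block, 45 members differed between organs in control libraries and 47 in sulfate libraries. There 16 of 18 pairs with the same number correlated above 0.1 (0.0669 to 0.448), and the numbers were not taken as pairing because not all did. The median for different numbers, -0.0984, was again no separate comparison. Of 196 contrasts of a member's organ with the others, 17 were called only with the block and 0 only without it. Between treatments the numbers share only a number, and the block there gave 44 rises over all features in stem, 40 in needles and 25 in cotyledons, from 77, 21 and 9. A fit over all 24 libraries gave 120, 249 and 200. In cotyledons a minimum of 5 gave 4 rises and edgeR 3. Leaving out a library gave 56 (root sulfate 1) to 375 (root control 1) rises in roots, with 99 for control 2, 62 for sulfate 2 and 149 for sulfate 3. For stem the range was 10 (control 1, sulfate 2 or sulfate 3) to 63 (sulfate 1), with 19 for control 2 and 46 for control 3. For needles it was 2 (control 2) to 70 (sulfate 3), with 5, 9, 6 and 4 for control 1, control 3, sulfate 1 and sulfate 2. For cotyledons it was 0 (control 1 or control 3) to 4 (sulfate 3), with 1 for each other library. Among the members named with all library values, no effect of sulfate changed sign with another added value, another scaling or a library left out. No control organ contrast of theirs changed sign where either fit called it, and sign changes of contrasts not called were not counted. The cause of the shifts in the counts was not tested, also where fewer features or libraries enter. PpCO2_8510 held 1 to 3 reads in 3 control libraries. These libraries held 195881948 (cotyledon control 1), 97066476 (cotyledon control 3) and 134863358 (needle control 1) reads in all. The cause of its low counts there was not tested.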
